A study of Mus musculus with 8 samples.

Results

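In droplet single-cell libraries from the brains of mice with ZFTA-RELA ependymoma, 2263 of 39632 barcodes that passed the limits on counts carried RNA of neural cells together with RNA of the proliferation genes Mki67 and Top2a. A cell counted here had at least 1000 UMIs (unique molecular identifiers, 1 per captured RNA molecule), 200 to 6000 genes and at most 10% of its UMIs from mitochondrial genes. It had no UMI of Ptprc (CD45), Cd3d, Cd3e, Cd3g, Tyrobp, Mog or Mag, which mark leukocytes, T cells, myeloid cells and mature oligodendrocytes. It had at least 3 UMIs summed over the neural genes Nnat, Mdk, Sox2ot and Ctnna2, and at least 2 summed over Mki67 and Top2a. All of these conditions but the last define the gated neural or tumor cells, 17162 in all. Of these, 12994 had no UMI of Mki67 or Top2a and serve as the comparison (negative cells), 1905 had exactly 1 and were left out of both states, and 2263 were the cycling cells. Selection therefore rested on measured values, and the levels of the genes named in it are given as a description without a test.

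Dividing cells pass through G1, S, G2 and M phase in order. Cyclins and the kinases they activate drive the passage, CDK inhibitors hold it back, and the RB and E2F proteins switch on the genes for DNA replication at the entry into S phase. Genes for the spindle and for chromosome segregation follow in G2 and mitosis, under FOXM1 and MYB-type factors. Mki67 encodes a coat protein of mitotic chromosomes and Top2a the topoisomerase that disentangles sister chromatids, and both peak late in the cycle, so a selection on them favors G2 and mitotic cells. Supratentorial ependymoma with the ZFTA-RELA fusion is a childhood brain tumor whose cells resemble neural progenitors.

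All mice had the genotype NestinCreERT2;Fus1;RFPTdT. In this model the Nestin promoter drives the Cre that recombines a conditional ZFTA-RELA allele in embryonic radial glia. At 3 weeks of age the mice were assigned at random to 1 intrathecal dose of mavrilimumab or of control antibody (Vehicle IgG). Mavrilimumab is an antibody to the GM-CSF receptor alpha chain and was given at 5 mg/kg. Tumor or brain tissue was taken at a humane endpoint from mice of 6 to 8 weeks. The study describes the tumors of these libraries as sampled at recurrence, and how this fits with that age is not known here. Comparisons of the treatments below therefore do not describe tumors at earlier times after the dose. Cells were stained and sorted before 10x 5′ capture. The labels list DAPI, CD45-PE and Ter119 FITC as the stains, whereas the study's methods give CD45-PE as a label injected into the blood to mark cells inside vessels and a separate CD45 antibody, in APC, for the sort. The study describes these libraries as CD45+ cells from outside the vessels of the tumor. Such a sort should remove cells without CD45, as those described here are by their RNA, and the Ter119 gate should remove erythroid cells, so the neural or tumor cells are ones that came through it and their shares need not be those of the tissue. Each group was sequenced as 2 gene expression libraries from tumors pooled within the group, and how many tumors went into each library is not known here. No transcript of the fusion was measured for this report, so tumor cells and normal neural cells that were dividing could not be told apart.

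The cycling cells came almost wholly from 1 library. The library labelled vehicle IgG 2 held 2212 of them among 16700 gated cells, mavrilimumab 2 held 50 among 449, vehicle IgG 1 held 1 among 8, and mavrilimumab 1 held 0 among 5. Gated cells made up 62.4% of the barcodes that passed the limits in vehicle IgG 2, 8.18% in mavrilimumab 2, 0.813% in vehicle IgG 1 and 0.078% in mavrilimumab 1, and Ptprc was found in 26.4% of barcodes in vehicle IgG 2 against 82.2% to 97.2% in the other libraries. The labels of the libraries carry a doubt. The 3 T cell receptor files used here name the other treatment inside their records, while their barcodes matched expression libraries of the treatment under which they are filed. The receptor file of vehicle IgG 2 was not among them, so the label of that library was not checked in this way. Of 193 receptor-bearing barcodes of vehicle IgG 1, 182 were found in the expression library vehicle IgG 1. The numbers of the mavrilimumab libraries were exchanged, with 2491 of 2749 barcodes of mavrilimumab 1 found in mavrilimumab 2 and 4867 of 5659 barcodes of mavrilimumab 2 found in mavrilimumab 1. Libraries are therefore called by their expression labels only, and every comparison below was made within a library and then joined over libraries wherever that was possible. Of the cycling cells, 1 barcode was shared between vehicle IgG 2 and mavrilimumab 2.

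Depth differed between the states. In vehicle IgG 2 the median was 5585 UMIs in cycling cells and 3474 in negative cells, and 2770.5 against 1941.5 genes were found. In mavrilimumab 2 the medians were 4357.5 and 3851.5 UMIs. Summed UMIs came to 13814168 and 51991911 in vehicle IgG 2 and to 375802 and 2396407 in mavrilimumab 2. The second library thus adds few cells, and these are from the other treatment. Scrublet, a doublet caller, marked 6.47% of the barcodes of vehicle IgG 2, including 123 of its 2212 cycling cells, but only 0.0364% of mavrilimumab 2, where it has to be taken as not having worked.

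Promoter sequences are shown for 4 of the 12 genes with the largest rise, whose windows hold a CCAAT motif. These genes encode the spindle proteins Hmmr, Kif11 and Prc1 and the mitotic cyclin Ccnb1. Each window runs from 250 bases before to 50 bases after the annotated start, along the gene's strand, in the RefSeq annotation of GRCm38.p6. Capitals mark TTTGAA, the core of the cell cycle homology region, and CCAAT, the core of the CCAAT box, each on either strand (as TTCAAA and ATTGG on the other). The copies shown do not overlap one another.
Hmmr, chr11:40733388-40733687, minus strand: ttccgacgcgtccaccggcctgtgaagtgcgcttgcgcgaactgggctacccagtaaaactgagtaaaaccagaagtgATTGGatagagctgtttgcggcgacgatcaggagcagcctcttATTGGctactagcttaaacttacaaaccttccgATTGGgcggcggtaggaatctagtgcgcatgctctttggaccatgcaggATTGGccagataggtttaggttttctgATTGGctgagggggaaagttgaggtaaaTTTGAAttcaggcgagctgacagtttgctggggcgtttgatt
Kif11, chr19:37376132-37376431, plus strand: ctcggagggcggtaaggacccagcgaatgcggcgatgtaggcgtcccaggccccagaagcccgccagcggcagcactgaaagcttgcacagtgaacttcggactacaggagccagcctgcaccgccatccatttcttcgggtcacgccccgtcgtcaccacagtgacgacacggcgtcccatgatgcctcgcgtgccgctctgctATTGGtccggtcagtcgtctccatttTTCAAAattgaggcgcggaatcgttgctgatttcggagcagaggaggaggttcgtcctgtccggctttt
Prc1, chr7:80294201-80294500, plus strand: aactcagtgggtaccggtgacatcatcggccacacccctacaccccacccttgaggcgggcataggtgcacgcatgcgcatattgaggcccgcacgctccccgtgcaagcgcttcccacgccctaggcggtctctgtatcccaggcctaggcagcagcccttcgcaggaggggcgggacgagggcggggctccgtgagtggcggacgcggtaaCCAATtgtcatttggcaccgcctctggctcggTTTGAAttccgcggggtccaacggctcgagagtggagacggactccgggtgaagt
Ccnb1, chr13:100786437-100786736, minus strand: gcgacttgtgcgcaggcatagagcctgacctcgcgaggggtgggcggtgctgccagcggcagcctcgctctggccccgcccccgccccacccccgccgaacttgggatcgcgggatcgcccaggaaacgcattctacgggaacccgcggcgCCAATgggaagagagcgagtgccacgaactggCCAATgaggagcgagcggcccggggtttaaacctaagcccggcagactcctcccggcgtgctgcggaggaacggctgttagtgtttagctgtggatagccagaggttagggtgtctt
The windows of Hmmr, Kif11 and Prc1 held both motifs, and that of Ccnb1 held CCAAT alone. Among the other genes of this group with a window in the table, Knl1 and Kif15 held TTTGAA alone, and Tk1 and Birc5 held neither motif.

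The motif content of the promoters differed between the gene lists of the cycle. TTTGAA was present in 63.3% of the 49 promoters found for the G2 and mitosis genes, against 17.9% of all 32851 promoter windows 15.4% of the 39 found for the S phase genes and 44.8% of the 58 histone gene promoters. CCAAT was present in 75.5% and 69.2% of these lists, in 86.2% of the histone gene promoters, and in 37.4% of all windows. GCGCGAAA, an E2F-type motif, was found in 12.8% of S phase promoters, 15.5% of histone promoters, 2.04% of G2 and mitosis promoters and 0.323% of all windows. All motifs were searched on both strands and may overlap one another. The tables matched 44 of 50 genes of G2 and mitosis, 35 of 47 of S phase and 57 histone genes, and a match describes letters in a window and not a bound factor.

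The genes used in the selection had the following levels in the cycling cells, in counts per 1e6 summed UMIs (CPM). Mki67 stood at 815 CPM in vehicle IgG 2 and at 522 in mavrilimumab 2, and Top2a at 1016 and 713. Both genes were seen in 1615 of 2212 cells (73%) in vehicle IgG 2 and in 33 of 50 (66%) in mavrilimumab 2. Nnat, an imprinted membrane protein gene of immature neurons, stood at 3356 CPM in cycling and 4336 in negative cells of vehicle IgG 2, and at 1243 and 2888 in mavrilimumab 2. Mdk, which encodes the growth factor midkine, stood at 1451 and 1210 CPM, and at 1384 and 1415. Sox2ot, a long noncoding RNA that overlaps Sox2, stood at 680 and 844 CPM, and at 721 and 505, and Ctnna2, a neural catenin, at 421 and 485 CPM, and at 564 and 282.

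Markers not used in the selection were checked against the label. All 18 neural or tumor genes of a marker list, among them Sox2, Fabp7, Vim, Dcx and Ptprz1, were found in the cycling cells of vehicle IgG 2 at a sum of 7638 CPM, against 7250 in negative cells. In mavrilimumab 2, 17 of 18 were found at 5537 CPM against 6334 in negative cells. The list includes Stmn1, a gene that also serves dividing cells. It stood at 1565 against 497 CPM in vehicle IgG 2 and at 681 against 348 CPM in mavrilimumab 2. The Stmn1 difference in vehicle IgG 2 is larger than that of the sums, so the sums show no excess of the other markers in cycling cells. T cells, used below for comparison, had at least 2 UMIs of Cd3d, Cd3e and Cd3g and none of Tyrobp or of the 4 neural genes of the selection. The 18 genes summed to 1960 and 1302 CPM in them, a level that leaving out barcodes with those neural genes lowers by choice, so it is no check of the label. The 10 T cell markers summed to 8.69 and 7.98 CPM in the cycling cells, with Cd2, Cd8a, Cd8b1, Cd4, Trbc2, Ltb and Cd28 at 0 in mavrilimumab 2, against 2788 and 4218 CPM in T cells. The 12 microglia and macrophage markers summed to 451 CPM in cycling and 498 in negative cells of vehicle IgG 2, and to 1629 and 1899 in mavrilimumab 2, where Cx3cr1 and Csf1r were at 0 in cycling cells. In the T cells of these libraries they summed to 578 and 1252 CPM, and with cells thinned to 1000 UMIs at least 1 was found in 31.2% of cycling cells of vehicle IgG 2 and 72% of mavrilimumab 2. The 9 pericyte and fibroblast markers summed to 108 CPM in cycling cells of vehicle IgG 2, with Kcnj8, Dcn and Lum at 0, and to 676 CPM in those of mavrilimumab 2, with Rgs5, Vtn, Kcnj8, Col3a1 and Lum at 0, against 175 and 516 CPM in negative cells and 17.7 and 9.15 CPM in T cells. Endothelial markers summed to 28.8 CPM in the cycling cells of vehicle IgG 2, with Cdh5 at 0 in both libraries. The part of other cells and of free RNA in these levels was not tested. In vehicle IgG 2, 27% of barcodes with at least 2 Cd3 UMIs also reached 3 UMIs of the neural genes, against 1.39% in mavrilimumab 2.

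Further cell types were seen in small numbers of cycling cells. Erythroid genes reached at least 2 UMIs in 8 of 2212 cycling cells of vehicle IgG 2 against 3 of 12612 negative cells, and in 1 of 50 against 1 of 370 in mavrilimumab 2. Choroid plexus markers reached at least 20 UMIs in 14 cycling cells of vehicle IgG 2 and in 1 of mavrilimumab 2. That 1 cell held 99.8% of all Ttr UMIs in the cycling cells of mavrilimumab 2, where the choroid list summed to 8661 CPM in cycling and 19676 in negative cells. Results that rest on these cells are given with and without them.

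The levels of the cycle lists followed the count of Mki67 and Top2a without a step at the threshold in vehicle IgG 2. There, the 47 S phase genes summed to 1053 CPM in negative cells, 1645 in cells with 1 UMI, just outside the selection, and 2562 in cells with 2, just inside it. In cells with 10 or more they reached 6413 CPM. The 50 genes of G2 and mitosis summed to 1541, 2019 and 2911 CPM at 0, 1 and 2 UMIs and to 16805 at 10 or more. At exactly 2 UMIs stood 534 of 2212 cycling cells in vehicle IgG 2 and 10 of 50 in mavrilimumab 2. Cells with 10 or more also had the highest depth, with a median of 8020 UMIs against 4043 at 2. In mavrilimumab 2, where each class above 1 UMI held 4 to 16 cells, the S phase list stood at 763, 1555 and 3202 CPM at 0, 1 and 2 UMIs.

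**Figure D1:**
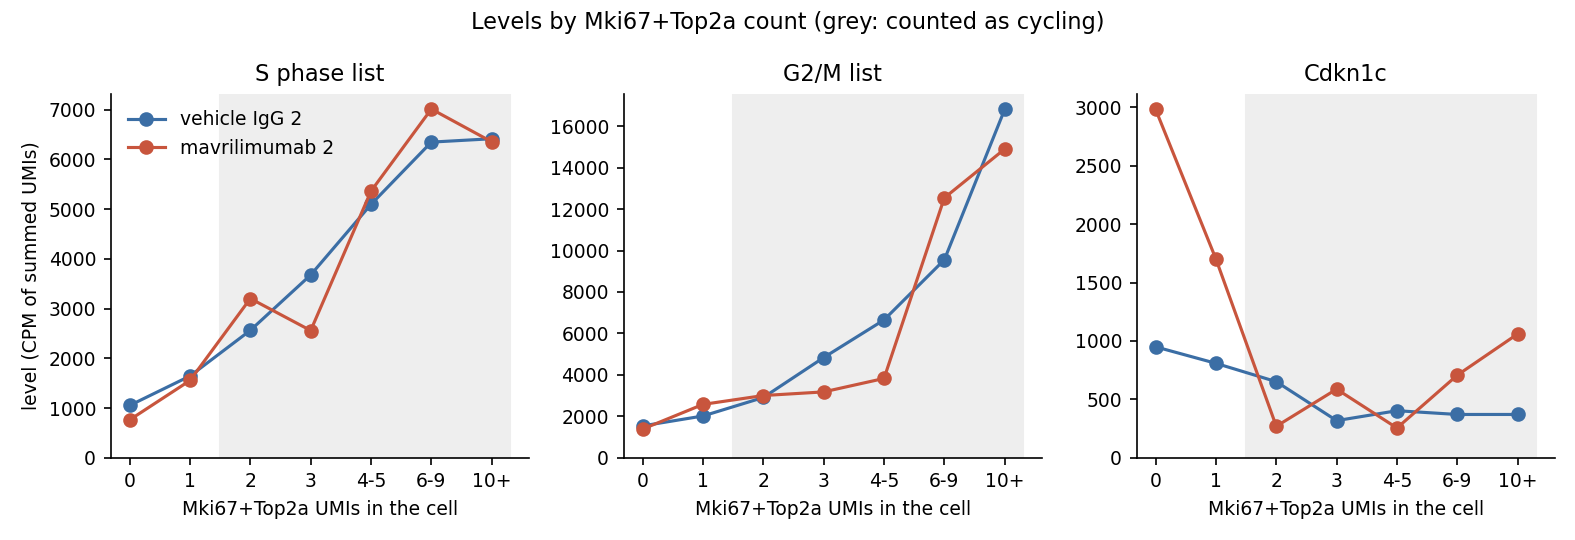
Summed level in CPM of the S phase list, the G2 and mitosis list and Cdkn1c (y axes, linear) by the number of Mki67 and Top2a UMIs in a cell (x axis), for vehicle IgG 2 (blue) and mavrilimumab 2 (red); each point is 1 sum over cells and the gray area marks the cells counted as cycling. The G2 and mitosis list of vehicle IgG 2 runs from 1541 to 16805 CPM, and Cdkn1c is highest in the negative cells of both libraries, at 950 and 2981 CPM.

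To see which genes other than those of the selection went with the cycling state, UMIs were summed per library and state and tested with edgeR's quasi-likelihood test with the library as a block. Only vehicle IgG 2 and mavrilimumab 2 had 20 cells of each state, so the fit rested on 4 sums and 1 residual degree of freedom. These libraries differ in treatment, so no treatment had a replicate, and a treatment difference in the effect of the state falls into that residual. The SEs draw on a dispersion shared over genes and are not a gene's spread between the libraries. Of 14640 genes tested, 791 were higher and 198 lower in cycling cells at a Benjamini-Hochberg adjusted p under 0.05, which is 6.76% of all genes (5.4% higher and 1.35% lower). The median difference over all genes was -0.04 on the log2 scale. Of the genes called, 975 of 989 had the same sign in both libraries. The calls came from these same libraries, so this agreement is no separate test of them. Genes that vary with Mki67 and Top2a from cell to cell were bound to differ between cells chosen on these genes, so the lists of the cycle describe the selected cells. The loss of calls was large in some settings: DESeq2 called 524 genes, cells paired with negative cells of equal depth gave 468 (438 higher and 30 lower), and a fit without the library block called 312 higher and 0 lower, with 1120 genes at an unadjusted p under 0.05.

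The replication and mitosis lists were higher almost throughout. Of 47 S phase genes 46 were higher and 0 lower, with a median log2 difference of 2.96. All 47 were higher in both libraries, against 3909 of all 14640 genes tested. Counts of genes higher in both libraries in other lists are read against the latter. Pcna, the sliding clamp of DNA polymerase, stood at 467 CPM in cycling and 80.3 in negative cells of vehicle IgG 2, and at 354 and 58.8 in mavrilimumab 2. The cycling cells were above the negative cells in both libraries, by 2.59 ± 0.30 (log2, SE; edgeR adjusted p = 3.37e-16). Mcm10, a replication initiation factor, had the largest difference of the list, with 39.2 against 1.46 CPM and 34.6 against 0.417 CPM, or 5.01 ± 0.48 on the log2 scale.

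Of 50 genes of G2 and mitosis 47 were higher and 0 lower, with a median of 4.96. Those not called were Tubb4b, a beta tubulin, Ctcf, the chromatin loop factor, and Cbx5, a heterochromatin protein. Tubb4b stood at 682 against 340 CPM in vehicle IgG 2 and at 514 against 447 in mavrilimumab 2 (edgeR adjusted p = 0.36). Of the 49 core and linker histone genes that passed the filter on low counts 37 were higher and 0 lower, with a median of 3.70 and 43 higher in both libraries. H1f4, a linker histone, stood at 655 against 113 CPM and at 750 against 107 CPM. H2ac12 had the largest difference of the list, 5.50 ± 1.31, on 21 and 3 UMIs in cycling and 2 and 0 in negative cells, which is near the floor of 3 UMIs. Replicative histone genes are close copies of one another, and how the counting divided reads between them is not known here.

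**Figure D2:**
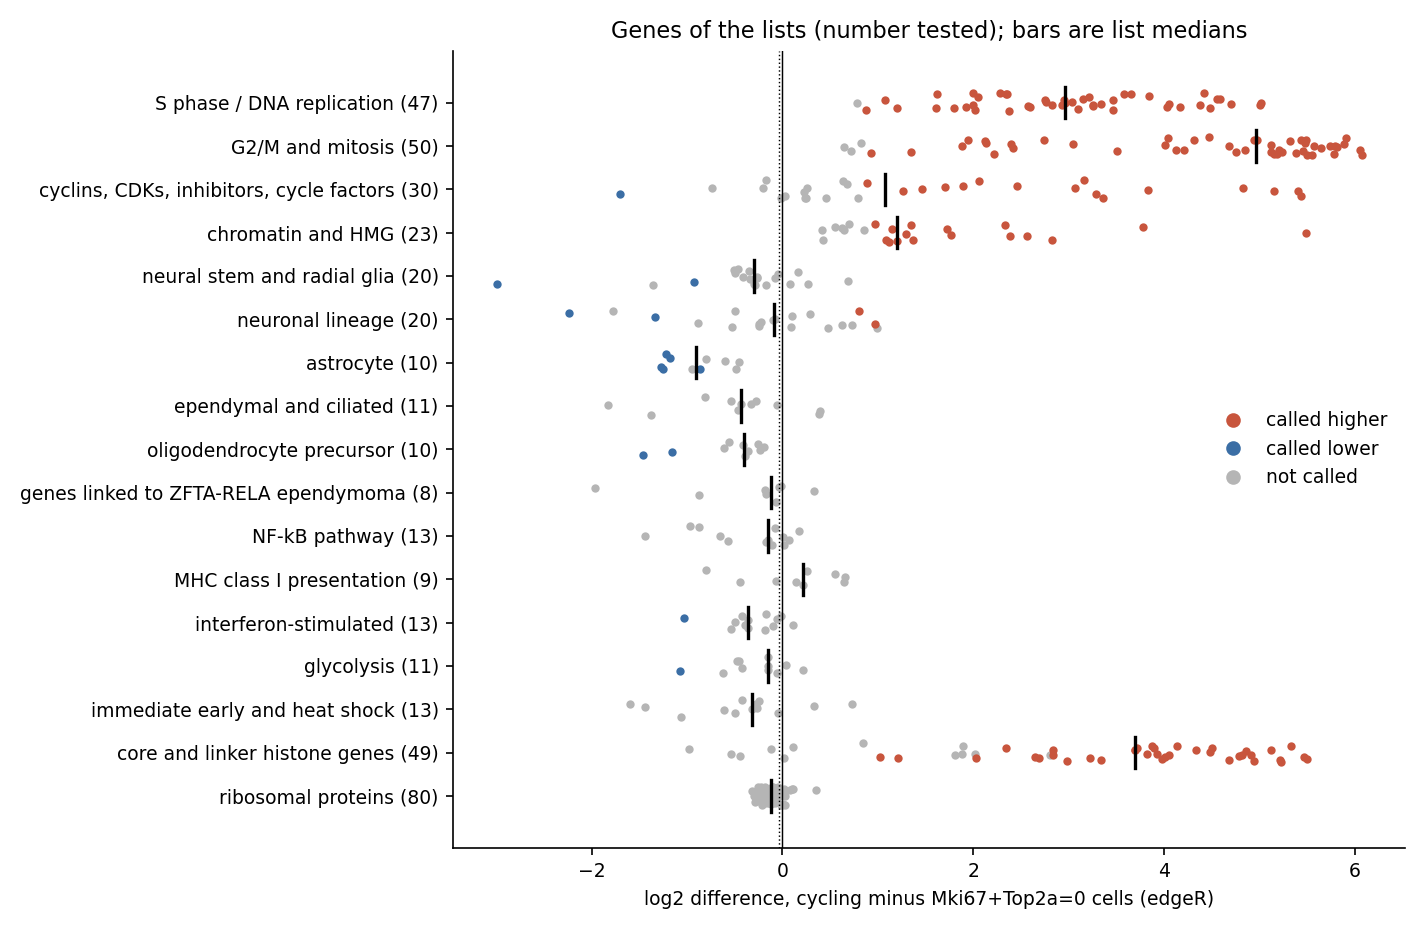
Log2 difference of each gene between cycling and negative cells from the edgeR fit (x axis) for 17 gene lists with the number of genes tested (y axis); points are genes, red called higher, blue called lower and gray not called, black bars are list medians and the dotted line is the median of all genes, -0.04. The S phase, G2 and mitosis and histone lists lie far to the right, with medians of 2.96, 4.96 and 3.70, and the astrocyte list lies wholly to the left of 0.

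The 12 genes with the largest rise among those with a mean of at least 50 CPM, named by a fixed rule, all serve replication, chromosome segregation or nucleotide supply. Esco2 acetylates cohesin to hold sister chromatids together. It stood at 157 CPM in cycling and 2.64 in negative cells of vehicle IgG 2 and at 109 and 0.417 in mavrilimumab 2, a difference of 6.19 ± 0.34 (log2, SE; edgeR adjusted p = 1.93e-67). Aurkb and Birc5, the kinase and the survivin subunit of the chromosomal passenger complex, differed by 6.07 ± 0.36 and 5.65 ± 0.32. Hmmr, a spindle protein, stood at 181 against 2.71 CPM and at 112 against 3.34 CPM, and Kif11, the motor that pushes spindle poles apart, at 272 against 4.90 CPM and 232 against 5.42 CPM. Prc1, which crosslinks microtubules of the central spindle, stood at 318 against 7.98 CPM and at 367 against 5.84 CPM. Their differences were 5.90 ± 0.34, 5.73 ± 0.33 and 5.59 ± 0.33.

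The other genes of this group reported here had differences from 5.56 to 5.88 on the log2 scale. They were Cdca2, a phosphatase adaptor of mitotic chromatin, Tk1, the thymidine kinase of the nucleotide salvage pathway, the kinetochore scaffold Knl1, the spindle motor Kif15, and Ccnb1. Ccnb1 stood at 123 against 2.33 CPM in vehicle IgG 2 and at 122 against 4.17 in mavrilimumab 2. In both libraries and for all 12 genes the cycling sums lay above both negative sums. When every cell was thinned to 1000 UMIs, a UMI of Hmmr was left in 14.2% of cycling and 0.254% of negative cells of vehicle IgG 2 and in 1.29% of its T cells of all states, and one of Prc1 in 22.2%, 1.08% and 2.91%. Of those T cells 7.88% were in cycle, so their shares are not those of cycling T cells.

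**Figure D3:**
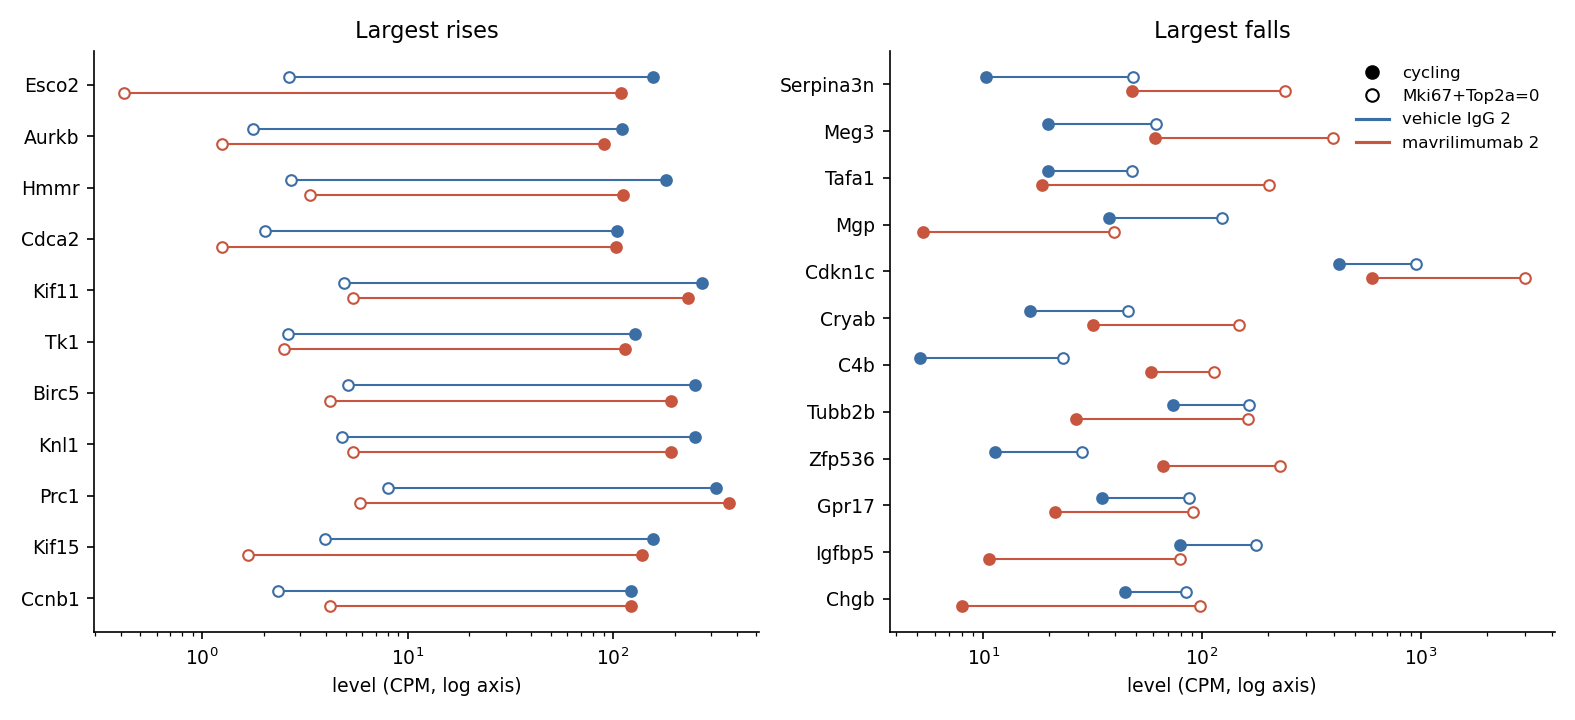
Level in CPM (x axes, log scale) of 11 of the 12 genes with the largest rise (left) and the 12 with the largest fall (right), for vehicle IgG 2 (blue) and mavrilimumab 2 (red); filled points are cycling cells, open points negative cells, and a line joins the states of a library. On the left all filled points lie right of the open ones, as for Kif11 at 272 against 4.90 CPM, and on the right each lies left of the open point of its own library, as for Serpina3n at 10.3 against 48.4 CPM in vehicle IgG 2, a direction in both libraries that the choice of these genes required.

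The regulators of the cycle did not move as 1 group. Of 30 cyclins, CDKs, inhibitors and cycle transcription factors, 16 were higher, 1 was lower and 13 were not called, with a median of 1.08. The D cyclins, which link growth signals to CDK4 and CDK6, were not called. Ccnd1 stood at 524 CPM in cycling and 532 in negative cells of vehicle IgG 2 and at 524 and 548 in mavrilimumab 2, a difference of -0.02 ± 0.33 (log2, SE), and Ccnd2 at 1240 against 1056 CPM and 764 against 665. In mavrilimumab 2, 1 cell held 128 of the 287 Ccnd2 UMIs of the cycling cells, and without it the level was 434 CPM, below that of the negative cells. Cdk4 and Cdk6 were not called either, with 0.22 ± 0.30 and 0.67 ± 0.27. For Cdk6, 1 cell of mavrilimumab 2 held 24 of 41 UMIs, and without it the level fell from 109 to 48.0 CPM, against 59.7 in negative cells.

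Downstream of the D cyclins most members were higher. Ccne1, the cyclin of the G1 to S transition, stood at 65.4 against 24.3 CPM in vehicle IgG 2 and at 144 against 25.9 CPM in mavrilimumab 2, a difference of 1.89 ± 0.27, and its partner Cdk2 differed by 2.06 ± 0.33. Ccna2, the cyclin of S phase and G2, stood at 177 against 4.00 CPM and 144 against 4.17, the largest difference of the list at 5.43 ± 0.32. Among transcription factors, the repressor E2f7 (5.15 ± 0.43) and Foxm1 (4.83 ± 0.42) differed more than the activators E2f1 (3.17 ± 0.39) and E2f3 (0.89 ± 0.25), and E2f4 was not called (0.24 ± 0.28). The differences between these genes were not tested against each other. Of the pocket proteins Rbl1 was higher (2.46 ± 0.30), while Rb1 (0.64 ± 0.25) and Rbl2 (-0.21 ± 0.27) were not called.

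The CDK inhibitors differed in direction. Cdkn2c and Cdkn2d, which encode the INK4 proteins p18 and p19, were higher, with Cdkn2c at 195 against 71.9 CPM in vehicle IgG 2 and at 109 against 41.7 CPM in mavrilimumab 2 (1.46 ± 0.26, edgeR adjusted p = 1.14e-06). Cdkn1a, Cdkn1b, Cdkn2a and Cdkn2b were not called, with Cdkn1a (p21) at 200 against 111 CPM and 301 against 189 CPM (adjusted p = 0.0539) and Cdkn1b (p27) at 193 against 170 CPM and 98.5 against 120 CPM. Cdkn1c, which encodes the inhibitor p57, was the only member lower. It stood at 422 CPM in cycling and 950 in negative cells of vehicle IgG 2 and at 599 and 2981 in mavrilimumab 2. The cycling sums lay below both negative sums, by 1.70 ± 0.42 on the log2 scale (edgeR adjusted p = 0.0013), or 3.25-fold.

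The Cdkn1c result has limits. With every cell thinned to 1000 UMIs its adjusted p rose to 0.118 at a difference of -1.55, and it was also lost without the library block. The share of cells with a Cdkn1c UMI at that depth was 21.1% in both states of vehicle IgG 2, and 34% against 42.7% in mavrilimumab 2, so in vehicle IgG 2 the states differed in UMIs and not in the share of cells. Of its 5833 UMIs in cycling cells of vehicle IgG 2, 1 cell held 356. Barcodes under 100 UMIs, which hold free RNA, carried Cdkn1c at 622 CPM in vehicle IgG 2 and 2049 CPM in mavrilimumab 2, and its part in these levels was not tested. Over cells with increasing counts of Mki67 and Top2a in vehicle IgG 2 Cdkn1c stood at 950, 808, 652 and 318 CPM at 0, 1, 2 and 3 UMIs and between 371 and 403 CPM above that. In mavrilimumab 2, with 4 to 16 cells in each class from 2 UMIs on, it stood at 2981 and 1700 CPM at 0 and 1 UMI and then showed no steady fall, at 270, 588 and 255 CPM for 2, 3 and 4 to 5 UMIs, 707 CPM for 6 to 9 and 1060 CPM for 10 or more.

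Chromatin genes shared the rise. Of 23 genes for chromatin and high mobility group proteins 16 were higher and 0 lower, with a median of 1.20, and all 23 were higher in both libraries. The condensin subunits Ncapg and Smc2, which compact chromosomes for mitosis, had the largest differences, 5.49 ± 0.37 and 3.78 ± 0.31. H2az1, a replacement histone, stood at 1997 against 333 CPM in vehicle IgG 2 and at 1088 against 268 CPM in mavrilimumab 2. Dnmt1, the maintenance methyltransferase, and Ezh2, the enzyme of Polycomb complex 2, differed by 2.39 ± 0.28 and 1.77 ± 0.27. Ptma, prothymosin alpha, stood at 3533 against 1631 CPM and 1980 against 1365 CPM and was not called (adjusted p = 0.431).

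Cycling cells could be divided by which of the lists they carried more of. With each cell thinned to 1000 UMIs, the S phase list held more UMIs than the G2 and mitosis list in 30.1% of cycling cells of vehicle IgG 2 (95% exact Clopper-Pearson interval 28.2 to 32.0%) and in 36% of mavrilimumab 2 (22.9 to 50.8%). The G2 and mitosis list held more in 63.2% (61.2 to 65.2%) and 58% (43.2 to 71.8%), with the rest equal or without a UMI of either. Such intervals cover counting error only, and the intervals of the libraries overlap. Cycling T cells, chosen on the same 2 UMIs, held more of the G2 and mitosis list in 58.2% (48.9 to 67.1%) of vehicle IgG 2 and 50.3% (45.6 to 55.0%) of mavrilimumab 2. The lists sum different genes and the selection favors late phases, so the shares are a description of balance and not of time spent in a phase.

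Regulators outside both lists differed in level between these classes. Ccne1 stood at 115 CPM (95% Poisson interval 105 to 126) in S-weighted cells of vehicle IgG 2, at 43.7 (39.5 to 48.4) in G2 and mitosis-weighted cells and at 24.3 in negative cells, and E2f1 at 96.9, 26.8 and 5.94 CPM. Ccna2 stood at 106, 225 and 4.00 CPM, Plk1, the mitotic entry kinase, at 15.5, 126 and 1.94 CPM, and Cdkn2c at 127, 239 and 71.9 CPM. Cdkn1c was lowest in S-weighted cells, at 244 CPM (229 to 259) against 472 (457 to 486) in G2 and mitosis-weighted cells and 950 in negative cells. The order was the same in mavrilimumab 2, at 298, 877 and 2981 CPM. Ccnd2 stood at 1475, 1158 and 1056 CPM in vehicle IgG 2 and at 1380, 299 and 665 CPM in mavrilimumab 2, where 1 cell held 128 of the 222 UMIs of the S-weighted cells. Ccnd1 stayed between 515 and 548 CPM in all 3 classes of both libraries. These values come from 1 sum per library and carry no test.

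**Figure D4:**
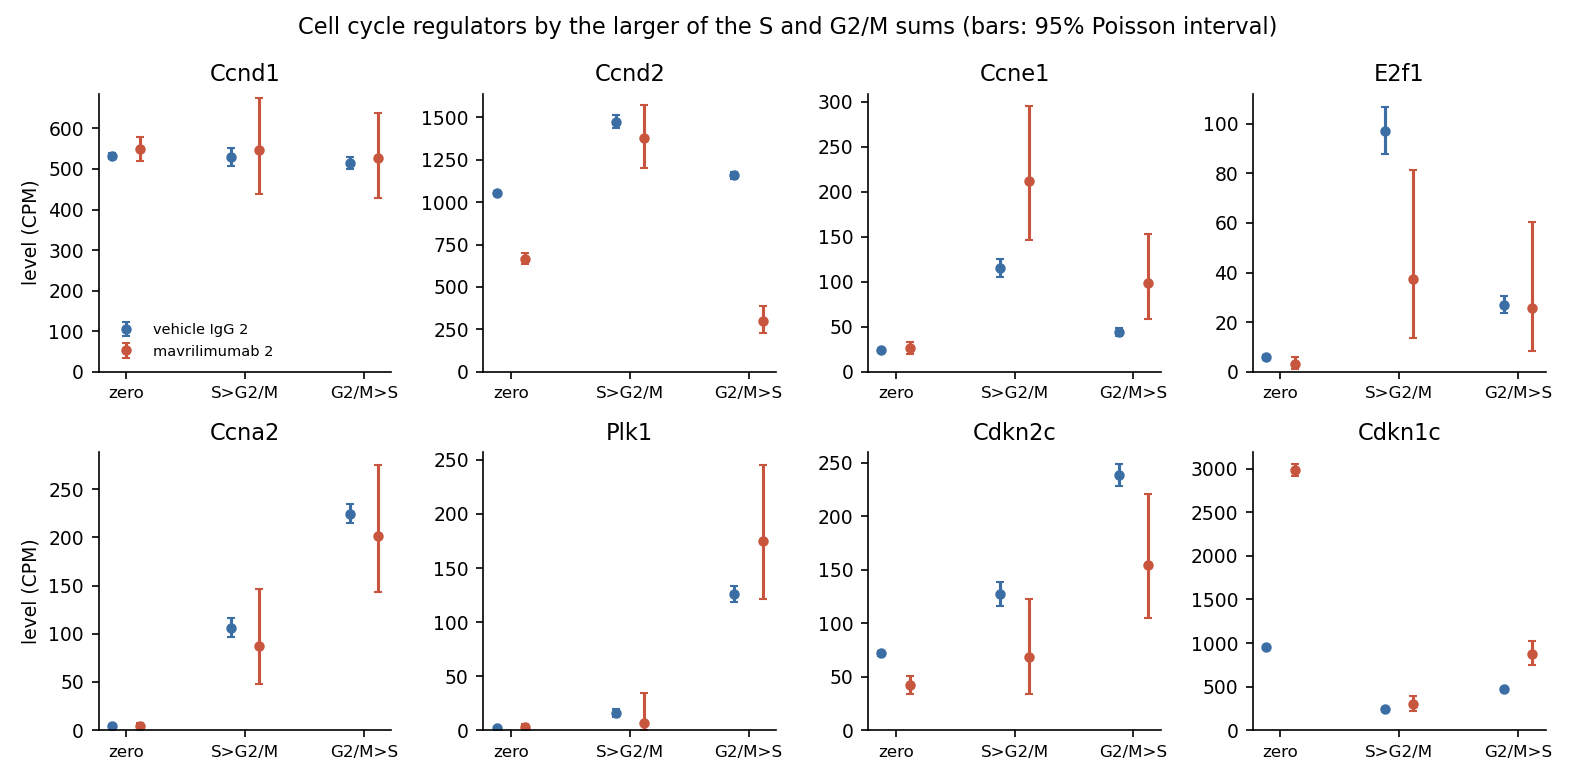
Level in CPM (y axes, linear from 0) of 8 cell cycle regulators in negative cells (zero), in cycling cells with more S phase than G2 and mitosis UMIs (S>G2/M) and in those with fewer (G2/M>S), for vehicle IgG 2 (blue) and mavrilimumab 2 (red); bars are 95% Poisson intervals of 1 sum. Ccne1 and E2f1 are highest in the S-weighted cells, Ccna2, Plk1 and Cdkn2c in the G2 and mitosis-weighted cells, and Cdkn1c in the negative cells.

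Much of the astrocyte list passed the test in the other direction. Of 10 astrocyte genes 5 were lower and 0 higher, against 1.35% lower and 5.4% higher of all genes. None of the 10 was higher in both libraries, against 3909 of all 14640 genes tested, and their median was -0.91. The oligodendrocyte precursor, NF-kB and interferon-stimulated lists also had 0 genes higher in both libraries. That count is thus not particular to the astrocyte list. DESeq2 called 3 of the 10 and limma-voom 4, and the fit without the library block called 0 of all genes lower. Markers of some other cell types were lower in the same cells: 6 mature oligodendrocyte markers other than the Mog and Mag of the selection summed to 309 CPM in cycling and 614 in negative cells of vehicle IgG 2 and to 98.5 and 209 in mavrilimumab 2, and the 5 choroid plexus markers to 803 and 2324 CPM and to 8661 and 19676 CPM. Others were not: the 5 erythroid markers summed to 70.9 CPM in cycling and 2.83 in negative cells of vehicle IgG 2 and to 279 and 7.93 in mavrilimumab 2, and the pericyte and fibroblast markers to 108 and 175 CPM and to 676 and 516 CPM. Their part in the astrocyte result was not tested. Gfap, the glial intermediate filament, stood at 33.8 CPM in cycling and 61.4 in negative cells of vehicle IgG 2 and at 50.6 and 196 in mavrilimumab 2, a difference of -1.22 ± 0.26 (log2, SE; edgeR adjusted p = 0.000117). S100b, a calcium-binding protein of astrocytes, stood at 43.8 against 98.3 CPM and 53.2 against 154 CPM, and the glutamate transporter Slc1a2 at 158 against 311 CPM and 141 against 402 CPM. Sparcl1 and the gap junction gene Gja1 were lower as well, with Sparcl1 in only 1 cycling cell of mavrilimumab 2. Clu, the member with the highest level, stood at 4197 against 6547 CPM and 6477 against 8487 CPM and was not called (-0.49 ± 0.64).

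Several of the 12 genes with the largest fall are known from astrocytes or from late stages of other neural lineages. Serpina3n, a protease inhibitor of reactive astrocytes, stood at 10.3 CPM in cycling and 48.4 in negative cells of vehicle IgG 2 and at 47.9 and 239 in mavrilimumab 2, a difference of -2.22 ± 0.27 (edgeR adjusted p = 3.85e-14). The complement gene C4b and the small heat shock protein gene Cryab differed by -1.64 ± 0.29 and -1.67 ± 0.28, on 22 and 12 UMIs in the cycling cells of mavrilimumab 2, with 11 of the 12 Cryab UMIs in 1 cell. Meg3, an imprinted long noncoding RNA, stood at 19.7 against 61.4 CPM and 61.2 against 399 CPM (-2.02 ± 0.28), and Zfp536, a zinc finger repressor, at 11.3 against 28.3 CPM and 66.5 against 228 CPM. Gpr17, a receptor of committed oligodendrocyte precursors, stood at 35.1 against 87.5 CPM and 21.3 against 90.6 CPM (-1.46 ± 0.28). Tubb2b and Chgb, a neuronal tubulin and a secretory granule protein, differed by -1.55 ± 0.28 and -1.40 ± 0.28.

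The secreted factors Tafa1, Mgp and Igfbp5 complete the group, with differences of -1.84 ± 0.27, -1.79 ± 0.30 and -1.46 ± 0.28. For Mgp, 404 of 520 UMIs in the cycling cells of vehicle IgG 2 came from 1 cell. All 12 falls lost their call without the library block, Cdkn1c, the twelfth gene of the group, among them. With negative cells matched in depth Cryab, C4b, Igfbp5 and Chgb lost it too. The sums behind the falls were small in mavrilimumab 2, where 7 genes of the group had 12 UMIs or fewer in cycling cells. There, 1 cell held 8 of 10 UMIs of Tubb2b, 13 of 23 of Meg3, 4 of 7 of Tafa1 and all 3 of Chgb.

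The stem cell and neuronal lists are read against the 6.76% of all genes called (5.4% higher and 1.35% lower). Of 20 genes of neural stem cells and radial glia 0 were higher and 2 lower, with a median of -0.30, and 18 were not called. Sox2, a core neural stem cell factor, stood at 138 CPM in cycling and 149 in negative cells of vehicle IgG 2 and at 31.9 and 65.9 in mavrilimumab 2 (-0.34 ± 0.27). Nes stood at 137 against 81.3 CPM and 69.2 against 107 CPM, and Ptprz1, the member with the highest level, at 558 against 762 CPM and 588 against 637 CPM. The lower members were Id3, an inhibitor of differentiation, at 11.7 against 22.7 CPM and 29.3 against 60.5 CPM, and Tnc, a matrix protein, on 7 and 0 UMIs in cycling cells. DESeq2 called 0 genes of this list.

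Of 20 neuronal genes 2 were higher and 2 lower. Their median, -0.09, turned positive in cells matched in depth and with 4 UMIs of Mki67 and Top2a required. Gad2, which makes GABA, and Syt1, a synaptic vesicle calcium sensor, were higher (0.80 ± 0.27 and 0.97 ± 0.26), mainly in mavrilimumab 2, at 202 against 79.3 CPM and 157 against 36.3 CPM. In vehicle IgG 2 they stood at 213 against 172 CPM and 77.1 against 71.1 CPM. Stmn2 and Neurod1, genes of differentiating neurons, were lower (-1.34 ± 0.28 and -2.24 ± 0.41), with Neurod1 at 103 UMIs in the cycling cells of vehicle IgG 2 and at 0 in those of mavrilimumab 2. Nrxn3, the member with the highest level, went in opposite directions in the libraries, at 1643 against 1886 CPM and 4646 against 1054 CPM, with 33.7% of its UMIs in the latter from 1 cycling cell. Among 10 oligodendrocyte precursor genes 2, Gpr17 and Bcas1, were lower and 0 higher, and Olig1 stood at 531 against 863 CPM and 1072 against 1115 CPM.

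Lists of the tumor and of its immune visibility are short, and with 6.76% of all genes called few calls say nothing particular about them. Of 8 genes linked to ZFTA-RELA ependymoma 0 were called, with Igf2, a growth factor, at 1216 against 1273 CPM and 1801 against 2292 CPM and L1cam, an adhesion molecule, on 23 and 1 UMIs in cycling cells. Of 13 NF-kB genes 0 were called, with Icam1 at 122 against 124 CPM and 210 against 271 CPM. Of 9 genes of MHC class I presentation 0 were called, with B2m, the light chain, at 447 against 559 CPM and 780 against 709 CPM, the latter 661 CPM in cycling cells without the 1 cell that held 65 UMIs. Of 13 interferon-stimulated genes 1, Ifit1, was lower, at 9.34 against 21.5 CPM and 29.3 against 52.6 CPM. At an unadjusted edgeR p under 0.05 stood 2 of the ZFTA-RELA genes, 0 of the NF-kB genes and 1 of the MHC class I genes, and DESeq2 called 0 of each of these lists and limma-voom 1, 0 and 0. These counts do not show equal levels: the SE of B2m, for example, was 0.34 on the log2 scale around a difference of -0.07.

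The remaining lists bear on growth and handling of the cells. Their counts are read against the 6.76% of all genes called (1.35% lower), and few calls say nothing particular about them. Of 11 glycolysis genes 1, the aldolase Aldoa, was lower, at 270 against 576 CPM and 226 against 489 CPM (-1.07 ± 0.31), and Pkm stood at 484 against 558 CPM and 726 against 807 CPM. Of 80 ribosomal protein genes 0 were called, and their median difference was 0.10 in vehicle IgG 2 and -0.40 in mavrilimumab 2. Of 13 immediate early and heat shock genes, which respond to dissociation, 0 were called, with Jun at 315 against 294 CPM and 255 against 175 CPM, the former 172 CPM without the 1 cell that held 33 UMIs. Of 11 ependymal and ciliated genes 0 were called, with Mia at 380 against 688 CPM and 373 against 661 CPM, and their median of -0.44 turned positive after thinning, under a stricter neural selection and without choroid plexus cells. Of the ribosomal, immediate early and ependymal lists 0, 4 and 1 genes had an unadjusted edgeR p under 0.05, DESeq2 called 0 of each, and limma-voom called 0, 1 and 0.

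T cells in cycle gave a test of what was particular to the neural or tumor cells. The difference between the states was compared in 1 model between gated cells and T cells of the same 2 libraries (122 and 453 cycling T cells). Of 15403 genes tested, 260 had a larger and 31 a smaller difference in gated cells (1.89% of all genes called, 1.69% larger and 0.201% smaller). The median over all genes was 0.26 on the log2 scale in this fit and 0.04 with DESeq2 size factors, which called 138 larger and 54 smaller, so changes are read against that shift. Thinning all cells to 1000 UMIs left 44 genes called.

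The cycle lists were higher in both cell types. Their median differences were 2.95 in gated cells and 2.15 in T cells for S phase, and 4.98 and 4.01 for G2 and mitosis. Of the S phase genes 7 had a larger and 1 a smaller difference in gated cells, and of the G2 and mitosis genes 11 and 1. The balance depended on the setting: these counts were 4 and 2 and 8 and 4 with DESeq2 size factors, 4 and 3 and 5 and 4 without choroid plexus cells, and 2 and 0 and 6 and 0 after thinning. The medians of the difference between cell types lay 0.40 and 0.15 above that of all genes. Histone genes differed by a median of 3.52 in gated cells and 3.50 in T cells, with 1 of 54 called larger in gated cells. Their median difference between cell types, taken gene by gene, was -0.27, or -0.53 relative to that of all genes. In the 3 other settings the relative value was between -0.53 and -0.48, with 0 histone genes called.

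The genes with the largest shortfall in gated cells included a pair that serve dividing cells. Stmn1, a microtubule destabilizer, stood at 1565 CPM in cycling and 497 in negative gated cells of vehicle IgG 2 but at 1339 and 56.0 in T cells, and in mavrilimumab 2 at 681 and 348 against 724 and 30.0. Its difference was smaller in gated cells by 3.07 ± 0.36 (log2, SE; edgeR adjusted p = 8.82e-14). Cit, the citron kinase of cytokinesis, stood at 109 and 68.7 CPM in gated cells and 66.8 and 9.72 in T cells of vehicle IgG 2, and was smaller by 2.28 ± 0.37. Both calls held with DESeq2 size factors, after thinning and without choroid plexus cells. The chemokine genes Ccl4 and Xcl1, which T cells make, were also called (by -2.95 ± 0.63 and -2.16 ± 0.63), as was Meg3 (by -2.59 ± 0.66). Ccl4 and Xcl1 stood at 0.290 and 0.434 CPM in the cycling gated cells of vehicle IgG 2. Meg3 stood at 3.71 CPM in cycling and 1.68 in negative T cells of vehicle IgG 2, and at 1.24 and 0.816 in mavrilimumab 2. Each of these genes was near the floor in gated cells or in T cells, so a difference between the cell types cannot be read from them. The Ccl4 result rests on vehicle IgG 2: without that library the difference was 0.36, with Ccl4 at 2.66 CPM in cycling and 0.835 in negative gated cells of mavrilimumab 2.

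Most of the genes with the largest excess in gated cells are known from the choroid plexus. Ptgds, Ttr, A2m and Enpp2, products of choroid plexus and leptomeninges among other cells, were not called between the states of the gated cells themselves. They stood lower in cycling than in negative T cells of both libraries. Ttr, for example, stood at 37.1 against 963 CPM in cycling and negative T cells of vehicle IgG 2. None of the 4 stayed called without the choroid plexus cells. Besides gated cells, that setting left out few T cells. Negative T cells went from 1205 to 1203 in vehicle IgG 2 and from 1394 to 1392 in mavrilimumab 2. The 122 and 453 cycling T cells all stayed. The part of these few barcodes in the T cell difference was not tested. Slc8a1, a sodium-calcium exchanger, stayed called without the choroid plexus cells (4.00 on the log2 scale, edgeR adjusted p = 8.52e-11) but not after thinning. It stood at 132 against 116 CPM in gated cells and 1.86 against 12.7 CPM in T cells of vehicle IgG 2. In mavrilimumab 2 it stood at 226 against 53.0 CPM in gated cells and 0.743 against 7.34 CPM in T cells. Cycling T cells were thus near the floor, and the size of this excess rests on few of their UMIs.

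The share of gated cells in cycle was the measure in which treatments could be compared over all 4 libraries. It was 12.5% (1 of 8 cells, 95% exact Clopper-Pearson interval 0.316 to 52.7%) in vehicle IgG 1, 13.2% (12.7 to 13.8%) in vehicle IgG 2, 0 of 5 cells (0 to 52.2%) in mavrilimumab 1 and 11.1% (8.38 to 14.4%) in mavrilimumab 2. The mean was 7.30 percentage points lower under mavrilimumab (5.57% against 12.9%; two-sided exact permutation test over libraries, p = 0.33, the smallest that 2 against 2 libraries can give). The libraries with enough cells differed by -2.11 points, and their intervals overlap. The limit of 6000 genes bore unequally on them. Before the mitochondrial limit, it left out 26 barcodes in vehicle IgG 2 and 26 in mavrilimumab 2 that met the gene conditions of cycling cells. These stand beside 2212 and 50 cycling cells kept, and the share without this limit was not computed. With each cell thinned to 1000 UMIs, 1 UMI of either gene was left in 13.1% and 10.7% of their gated cells. Without mavrilimumab 1 the difference of the means was -1.74 points, and over other limits on the cells it ran from -0.26 points with at least 4 UMIs of Mki67 and Top2a to -18.1 points with at least 6 neural UMIs. At that last limit vehicle IgG 1 held 1 cycling cell of 3, and vehicle IgG 2 and mavrilimumab 2 stood at 13.7% and 10.9%. A difference between treatments was not detectable with these cells.

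Other cell types of the same libraries give the background for this share. With the same 2 UMIs, T cells were in cycle at 16.2% and 7.88% in vehicle IgG 1 and 2 and at 10.1% and 20.9% in mavrilimumab 1 and 2, with median depths from 2331.5 to 12942 UMIs. Myeloid cells stood at 4.37%, 9.08%, 5.60% and 11.1% in the same order. Barcodes of mature oligodendrocytes, cells that should not divide, reached it in 0 of 39 in vehicle IgG 1, at a median of 19159 UMIs, but in 8.73% of vehicle IgG 2, at a median of 7087 UMIs, and in 7.69% of mavrilimumab 2, with 3 or more UMIs of the neural genes in 93.1% and 33.3% of them. Barcodes under 100 UMIs held Mki67 and Top2a at 429 CPM in vehicle IgG 2 and 581 CPM in mavrilimumab 2. The part of free RNA and of mixed barcodes in the share was not tested.

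**Figure D5:**
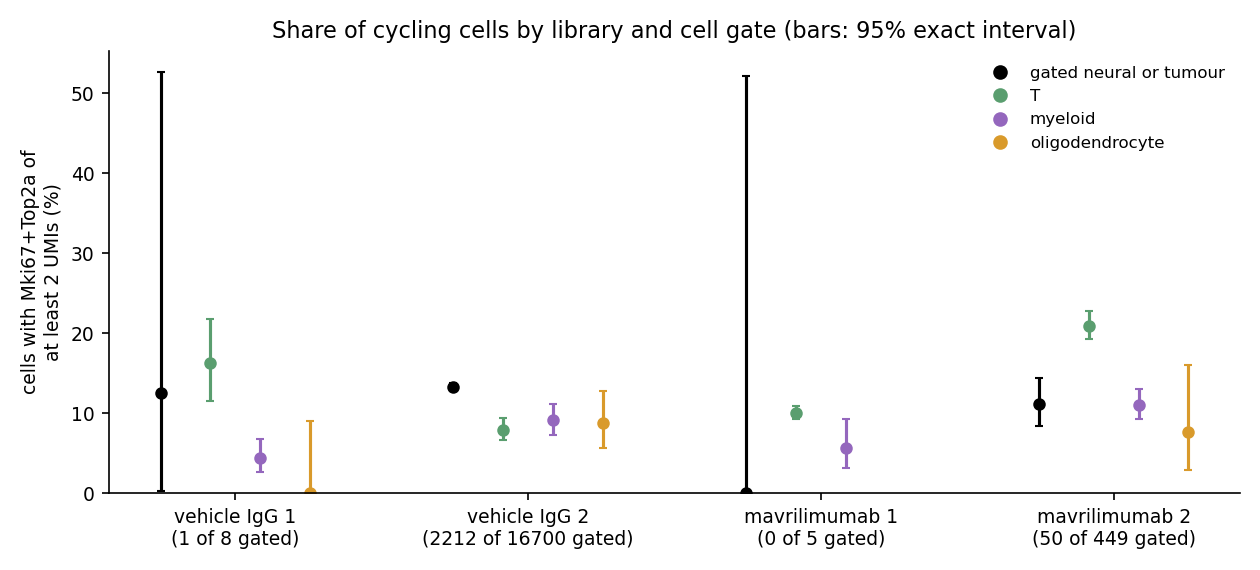
Share of cells with at least 2 UMIs of Mki67 and Top2a (y axis, %) in the 4 libraries (x axis, with cycling and gated cells counted), for gated neural or tumor cells (black), T cells (green), myeloid cells (purple) and mature oligodendrocytes (orange); bars are 95% exact intervals. The gated cells lie at 13.2% and 11.1% in the libraries with many cells, and the intervals of vehicle IgG 1 and mavrilimumab 1 reach past 52%.

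With 1 usable library per treatment, levels in cycling cells were compared between mavrilimumab 2 and vehicle IgG 2 as values without a test. The MHC class I list summed to 2586 CPM (95% Poisson interval 2426 to 2754) in mavrilimumab 2 and 1018 (1002 to 1035) in vehicle IgG 2, and the interferon-stimulated list to 1615 (1489 to 1749) and 662 (649 to 676). Negative cells differed in the same direction, at 1810 and 1238 CPM for MHC class I and 1459 and 945 CPM for the interferon-stimulated list. So did markers of other cell types in the cycling cells, at 1629 and 451 CPM for microglia and macrophages and 676 and 108 CPM for pericytes and fibroblasts, and their part in these differences was not tested. Ribosomal protein genes summed to 53563 and 90130 CPM, and chromatin genes to 10051 and 16425. The S phase list was near equal at 5200 and 5273 CPM, and the G2 and mitosis list stood at 8238 and 10943. Intervals cover counting error alone and not the difference between mice, sorts or libraries, and library and treatment cannot be told apart.

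The genes with the largest ratios between these libraries rested on single cells or single UMIs. Among 12179 genes with at least 50 UMIs in both sums together, those highest in mavrilimumab 2 were Cobl, Pex5l, Gm14963, Tmod1 and Unc13c, at 85.2 to 229 CPM against 1.95 to 5.36, and 1 cell held 83.7% to 100% of the UMIs of each. Pex5l, for one, had 86 UMIs in the cycling cells of mavrilimumab 2, of which 74 were in 1 cell. Those lowest were Amigo2, Bmpr1b, Ephb1, Lhx1os and Ccdc85a, each with 1 UMI in mavrilimumab 2. Amigo2, an adhesion molecule, stood at 2.66 CPM (0.0674 to 14.8) against 80.4 (75.8 to 85.3), a ratio of 0.0331 with a counting interval of 0.000837 to 0.185. A further 416 genes were at 0 in mavrilimumab 2.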

How the data were processed

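Gene expression was measured in 4 droplet libraries (2 vehicle IgG, 2 mavrilimumab). The deposited matrices hold raw UMI counts per gene and barcode as the authors' Cell Ranger run wrote them (9.0.1 per the file headers; the submitters' processing notes name Cell Ranger 7 and 7.1.0, Scanpy 1.8.2 and mm10), with no normalization and with barcodes below the cell limits left in. Total counts per library ran from 24354457 to 148657643. Deposited T cell receptor annotations were used only to compare barcodes.

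The members and gene lists were chosen with earlier results of these data known. UMIs were summed over cells per library and state, and genes passing edgeR's filter were tested with edgeR 4.0.16 (TMM, quasi-likelihood, library as block, R 4.3.3), with Benjamini-Hochberg adjustment at 0.05. Libraries needed 20 cells of each state. The comparison with T cells tested the interaction of state and cell type in the same way. A log2 difference is cycling minus negative, with its SE. The fit was run first on simulated counts with a state effect common to both libraries. That run does not bear on effects that differ between libraries or rest on single cells. Named genes were the 12 largest rises and 12 largest falls among called genes with a mean of at least 50 CPM and 1 direction in both libraries, the member of each list with the largest difference and the one with the highest level, the 5 largest differences in each direction against T cells with a mean of at least 50 CPM, and the 5 largest ratios in each direction between libraries. Other genes are named as members of their list and were chosen after their values were seen. Some items that the rule names are not reported here.

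Alternatives were DESeq2 1.42.0 size factors and test, limma 3.58.1 voom, no count filter, no library block, negative cells matched in depth, cells thinned to 1000 UMIs, stricter limits, and cells without Scrublet doublets (scanpy 1.11.5). Leaving out erythroid or choroid plexus cells was added after the data were seen. Tumors were pooled within a group, and the sources used here give no number per library, so p-values do not cover the spread between mice. With 1 residual degree of freedom, p-values and SEs of the state fit draw on a dispersion shared over genes. They are not a measure of a gene's own spread between the libraries. Chgb, for example, differed by -0.91 in vehicle IgG 2 and -3.41 in mavrilimumab 2, with an SE of 0.28. Promoters came from RefSeq (GRCm38.p6).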

Additional observations from a re-analysis of the deposited data

Results flagged for a closer look

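Effects of the cycling state differed between cell types by the interaction test. It called 291 genes, 260 with a larger and 31 with a smaller difference in gated cells than in T cells. The largest excesses were those of Ptgds (5.10 on the log2 scale), Ttr (4.54), Slc8a1 (4.34), A2m (3.64) and Enpp2 (3.47). All of these but Slc8a1 lost the call without choroid plexus cells. The largest shortfalls were those of Stmn1 (-3.07), Ccl4 (-2.95), Meg3 (-2.59), Cit (-2.28) and Xcl1 (-2.16). Ccl4 and Xcl1 were near the floor in gated cells and Meg3 in T cells, so a difference between the cell types cannot be read from them. Slc8a1 was near the floor in cycling T cells. In the cycling cells of mavrilimumab 2, 1 cell held 99.8% of the Ttr UMIs and 98.1% of the Enpp2 UMIs.

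Some list genes went in opposite directions in the libraries, vehicle IgG 2 first. Nrxn3 differed by -0.20 and 2.14 on the log2 scale, and B2m by -0.32 and 0.14. The sign of B2m in mavrilimumab 2 rests on 1 cell: without it the cycling cells stood at 661 CPM, against 709 CPM in negative cells. These differences between libraries were not tested.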

How the results depend on the processing

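Of 989 genes called between cycling and negative cells, 977 stayed called in the same direction with DESeq2 size factors, 840 with limma-voom, 922 without Scrublet doublets and 945 without choroid plexus cells. Of those still tested, 604 of 884 did so after thinning to 1000 UMIs (9 had the opposite sign, called or not), 464 of 983 in cells matched in depth (1 opposite), 947 of 984 with at least 4 UMIs of Mki67 and Top2a (9 opposite) and 861 of 987 with a mitochondrial limit of 5% (7 opposite). DESeq2's own test called 524 (465 higher, 59 lower), cells matched in depth 468 (438 and 30) and the fit without the library term 312 (312 and 0). The thinned fit called 573 higher and 123 lower, and requiring 4 UMIs of Mki67 and Top2a gave 382 lower. Against T cells, DESeq2 size factors called 192 genes (138 larger, 54 smaller), no filter on low counts 154 (93 and 61), thinning 44 (40 and 4), and leaving out choroid plexus cells 106 larger and 92 smaller. Requiring 4 UMIs gave 49 smaller. The causes of these shifts were not tested.

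The neuronal median turned to 0.48 in matched cells and 0.10 with 4 UMIs, and the ependymal median to 0.024 after thinning, 0.033 with 6 neural UMIs and 0.13 without choroid plexus cells. Against T cells, A2m turned to -0.16 and Enpp2 to -1.08 without choroid plexus cells. Leaving out 1 library gave A2m from -0.28 (without mavrilimumab 2) to 4.70 and Ccl4 from -2.96 to 0.36 (without vehicle IgG 2). The share of cycling cells of vehicle IgG 2 with more G2 and mitosis UMIs was 66.7% without thinning and 70.3% with 4 UMIs.

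The treatment difference in the cycling share was -0.26 points with at least 4 UMIs of Mki67 and Top2a, -1.23 after thinning, -9.69 with 1 UMI, -18.1 with 6 neural UMIs and -13.6 without choroid plexus cells, so its size depends on these limits. With 6 neural UMIs and without choroid plexus cells, vehicle IgG 1 held 1 cycling cell of 3 and of 4. Vehicle IgG 2 then stood at 13.7% and 13.3%, and mavrilimumab 2 at 10.9% and 11.1%. With the replicate number as a block the treatment difference was -7.30 points (exact test, p = 0.5, the smallest it can give). Leaving out 1 library gave -12.9 to -1.74 points. Over 55 named genes, 852 results under an alternative were counted as unchanged, 37 lost the call and 5 gained it. A further 31 values without a test moved by more than the spread. Unchanged results include genes called in neither fit, whatever their sign. They also include 49 and 30 values with 1 library left out that stayed within the spread. Another 55 come from a limit of 5 cells, which kept the same libraries and so could not differ. Depth limits the second library, with 375802 UMIs in its 50 cycling cells, and the fit of cycling against negative cells has 1 residual degree of freedom.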
